A study of Homo sapiens with 4 samples.

Results

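The 10 genes described here were the gp130 cytokines IL6, IL11 and LIF, the receptor genes IL6R, IL6ST, LIFR and OSMR, and the IL-12 family subunits IL23A, IL12A and EBI3. They are 10 of the 19102 genes that could be named on the Agilent array, and were found through the RefSeq accession of each probe, because the spot tables hold no column of gene symbols, with 15 of 34127 probes. IL6ST had 5 probes, LIF had 2, and the other 8 genes had 1 probe each. All 15 were among the 23244 probes that passed the filter on dim signals and were tested. A probe of the same genes with another kind of accession is not used here.

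RNA came from PC3 cells, a line from a human prostate cancer metastasis, infected with a lentivirus that carried shRNA against ALKBH3, an oxidative demethylase of alkylated nucleic acids, or control shRNA, which was directed against GFP. All cells were infected for 48 h, selected with puromycin and collected at 48 h or 96 h of selection, and each of the 4 conditions had 1 single-colour array. Each shRNA was thus repeated only across the 2 time points, the labels give neither the ALKBH3 hairpin nor whether cultures were separate, and p-values measure the spread between these arrays alone. Both arrays of a time point shared a slide, so time point and slide cannot be told apart. Each slide held both shRNAs. The main fit had no term for time point or slide, so the step between them enters its SE.

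Signals are given as the log2 of the spot intensity relative to the 75th percentile of the same array, so that a value of 0 is the intensity that 75% of spots do not reach, and a difference of 1 is 2-fold. That percentile lay between 2134 and 2385 intensity units, from 67.0% to 70.9% of probes on an array were well above background, and 0 spots were saturated. The signal of the first ALKBH3 probe (A_23_P35989) was -0.62 (48 h) and -0.61 (96 h) with control shRNA and -2.66 (48 h) and -2.67 (96 h) after ALKBH3 depletion, and the second (A_33_P3225250) fell by 1.63 on the log2 scale (SE 0.13, limma adjusted p = 0.240). All 5 epithelial markers (KRT8, KRT18, KRT19, EPCAM and CDH1) were well above background on all 4 arrays. EPCAM itself differed by 0.98, higher with ALKBH3 shRNA (SE 0.24, limma adjusted p = 0.451, and 0.0377 with time point as a block), CDH1 by 0.74, KRT8 by 0.03, KRT18 by -0.07 and KRT19 by -0.18. The summed level of the epithelial markers was 7.51 with control and 7.38 with ALKBH3 shRNA at 48 h, with 7.38 and 7.34 at 96 h, and the part of these genes in the values below was not tested. Of 7 leukocyte markers, LYZ was not named on the array, MS4A1 and ITGAX did not pass the filter, and PTPRC, CD14, CD68 and CD3E did. The summed level of the leukocyte markers at 48 h was -0.29 with control and -0.11 with ALKBH3 shRNA, the level at 96 h was -0.68 and -0.69, and 0 of the 4 tested were past the cutoffs. The summed level of the stromal and endothelial markers COL1A1, PDGFRB, PECAM1 and CDH5 was -0.35 and -0.01 at 48 h and -0.85 and -0.26 at 96 h. COL1A1 differed by 0.71 (SE 0.27, limma adjusted p = 0.653), PECAM1 by -0.59 and CDH5 by -0.20, PDGFRB did not pass the filter, and the part of these genes in the values below was likewise not tested.

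The cytokines of the IL-6 family signal through gp130, the shared receptor chain that IL6ST encodes. IL-6 first binds the receptor of IL6R, whereas LIF and oncostatin M bring gp130 together with the chains of LIFR and OSMR, and the JAK kinases then phosphorylate STAT proteins, STAT3 above all. The IL-12 family is built of pairs. IL12A and IL12B form IL-12, IL23A and IL12B form IL-23, EBI3 and the product of IL27 form IL-27, and EBI3 with IL12A forms IL-35. These subunits are best known from dendritic cells and macrophages, and IL-6, IL-11 and LIF are made by many tumour cells, where NF-kB and AP-1 factors are known inducers of several of these genes.

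The 250 bases before the annotated transcription start are shown for the 5 cytokine genes with a match to an NF-kB (kappa-B) or AP-1 consensus, which include the members that the comparison below turns on. The sequences are those of RefSeq on GRCh38.p14, 5′ to 3′ on the strand of the gene, and capitals mark the kappa-B and AP-1 matches. IL23A lies at chr12:56338634-56338883 on the plus strand, IL12A at chr3:159988585-159988834 plus, EBI3 at chr19:4229273-4229522 plus, IL6 at chr7:22726950-22727199 plus and IL11 at chr19:55370464-55370713 minus.
IL23A: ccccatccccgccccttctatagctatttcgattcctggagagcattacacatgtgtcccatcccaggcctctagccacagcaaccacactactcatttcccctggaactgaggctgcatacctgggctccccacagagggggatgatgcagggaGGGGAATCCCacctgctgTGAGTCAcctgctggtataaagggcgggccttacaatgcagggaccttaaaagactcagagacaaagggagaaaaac
IL12A: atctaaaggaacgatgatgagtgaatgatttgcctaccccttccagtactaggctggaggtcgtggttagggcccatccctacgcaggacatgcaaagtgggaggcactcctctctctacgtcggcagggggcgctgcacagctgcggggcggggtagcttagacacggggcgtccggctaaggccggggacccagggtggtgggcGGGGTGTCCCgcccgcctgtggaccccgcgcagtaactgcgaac
EBI3: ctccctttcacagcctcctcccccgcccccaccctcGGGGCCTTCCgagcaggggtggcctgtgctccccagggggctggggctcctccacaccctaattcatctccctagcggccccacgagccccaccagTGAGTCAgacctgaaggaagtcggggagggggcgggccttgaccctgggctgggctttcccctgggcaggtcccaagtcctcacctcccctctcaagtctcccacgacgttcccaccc
IL6: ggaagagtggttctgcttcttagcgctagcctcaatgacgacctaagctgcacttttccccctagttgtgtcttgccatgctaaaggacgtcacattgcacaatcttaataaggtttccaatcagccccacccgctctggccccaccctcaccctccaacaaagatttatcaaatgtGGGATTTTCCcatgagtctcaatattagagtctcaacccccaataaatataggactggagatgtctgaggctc
IL11: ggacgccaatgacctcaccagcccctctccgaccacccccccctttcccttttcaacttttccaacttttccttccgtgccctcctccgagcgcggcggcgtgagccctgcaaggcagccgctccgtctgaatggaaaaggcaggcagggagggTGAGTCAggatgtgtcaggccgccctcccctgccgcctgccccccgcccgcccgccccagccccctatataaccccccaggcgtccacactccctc

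In IL23A the kappa-B match began 95 bases before the start and the AP-1 match 77 bases before it, and the motif TATAAA followed at 62 bases. In EBI3 the kappa-B match stood at 214 and the AP-1 match at 118 bases. IL12A held a kappa-B match at 44 bases, IL6 held one at 73 bases, and IL11 held only an AP-1 match, at 96 bases. Windows were found for 9 of the 10 genes, 11 windows in all since LIFR has 3 annotated starts. Both strands were searched for 5 motifs, the kappa-B consensus among them. The AP-1 motif was TGA and TCA with any 1 base between them. For STAT factors the motif was TTCNNNGAA. The motif TATAAA was that of the TATA-binding protein. The core of the interferon-stimulated response element was a pair of GAAA with any 2 bases between them. No match of one motif overlapped a match of another in the sequences shown. The kappa-B consensus was matched in 5 of the 11 member windows, the fifth being IL6ST at 53 bases, and in 9.96% of 35116 windows of all genes. AP-1 was matched in 3 member windows and in 6.57% of all windows, STAT in 2 (both of LIFR) and 6.57%, the TATA motif in 2 and 10.7%, and the interferon element in 0 and 3.02%. A match describes letters in this window and is not a measured binding site, and binding was not measured on these arrays.

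**Figure D1:**
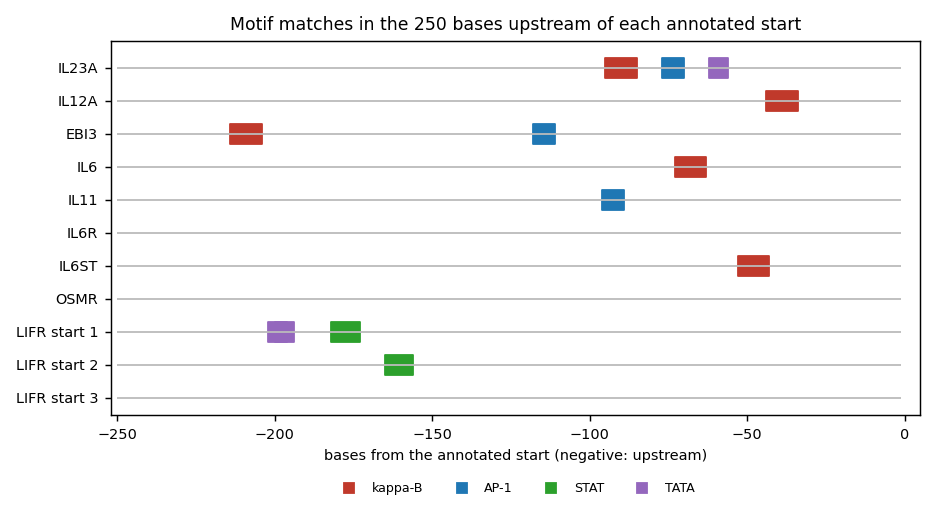
Motif matches in the 11 upstream windows of 9 members. The x axis is the distance in bases from the annotated start and each line is 1 window of 250 bases. The LIFR lines are not numbered by position: the windows with matches come first, and the last line is the LIFR window without a match. Kappa-B matches lie in the windows of IL23A, IL12A, EBI3, IL6 and IL6ST, and AP-1 matches in those of IL23A, EBI3 and IL11.

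The first question was which of these cytokines and receptors changed when ALKBH3 was depleted. With the cutoffs of the study, a log2 fold change of at least 1 and an unadjusted p below 0.05 in limma, 1 of 15 probes was higher with ALKBH3 shRNA, that of IL23A, against 0.895% of all probes tested. No member probe was lower, a count of 0 against 0.232% of all probes. No probe on the array passed an adjusted p of 0.05 in this fit, 0 of 15 members included, where the smallest adjusted p was 0.0810 over all probes and 0.361 among the members. An unadjusted p below 0.05 was found for 3 members, IL23A, EBI3 and IL12A, against 7.64% of all probes. EBI3 and IL12A had passed the filter only through the ALKBH3 arrays, on which they were the higher, so that their counts here and below support nothing, and IL23A was the 1 such member among the other 13 probes. The median log2 fold change of the 15 probes was 0.21, with quartiles of 0.07 and 0.51, beside 0.0033 (quartiles -0.12 and 0.14) over all probes. A positive difference was measured for 12 of the 15 probes, or 80% against 50.7% of all probes. IL6ST alone accounts for 5 of these 15 probes, which share their transcripts.

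Of the members, 10 probes were higher at both time points with ALKBH3 shRNA, 3 were lower at both and 2 had opposite signs. The 10 include all 5 probes of IL6ST as well as IL12A and EBI3, and no share over all probes is given for this split. The groups did not overlap for 4 probes that were higher on both ALKBH3 arrays (IL23A, 1 of IL6ST, and the pair of IL12A and EBI3 that the filter admitted through these arrays), against 17.5% of all probes. The same held for 2 that were lower (1 of LIF, and LIFR), against 18.5%. At 48 h, 1 array against 1 array, 1 member was at least 2-fold higher (EBI3), as were 1.63% of all probes, and at 96 h it was IL23A, beside 1.35%. Each array averages over many cells, so that more cells with a transcript and more transcript per cell cannot be told apart.

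**Figure D2:**
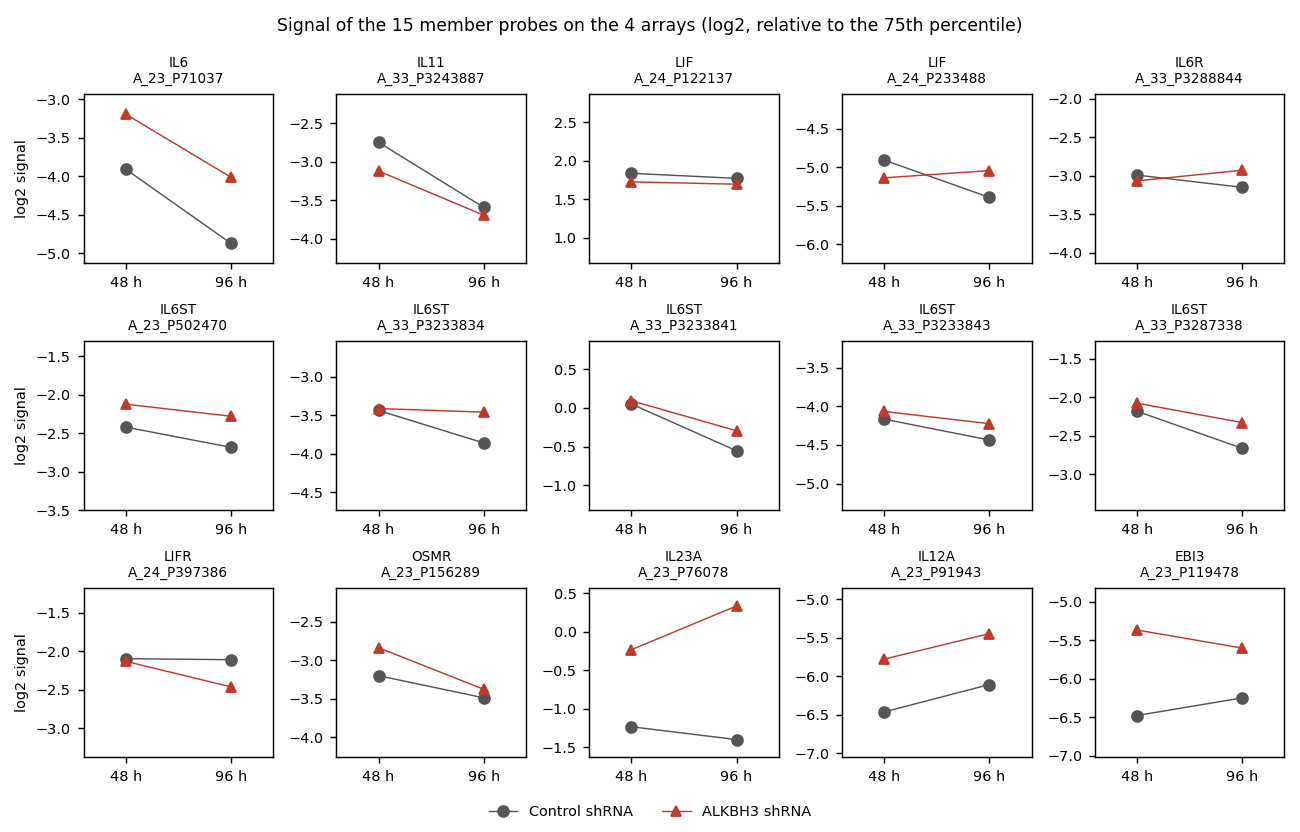
Signal of each of the 15 member probes on the 4 arrays. The y axis is the log2 signal relative to the 75th percentile of the array, with the same span in every panel but its own position, and the x axis is the time of selection; circles are control and triangles ALKBH3 shRNA, 1 array a point. IL23A, IL12A, EBI3 and IL6 lie higher with ALKBH3 shRNA at both time points.

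Among the IL-12 family subunits, IL23A, the partner of IL12B in IL-23, gave the only call. The signal of its probe (A_23_P76078) was -1.24 and -1.40 with control shRNA at 48 h and 96 h, and -0.24 and 0.33 with ALKBH3 shRNA. In intensity units these were 906 and 885 against 1933 and 3005, so both ALKBH3 arrays stood well clear of both control arrays. The difference was 0.9997 at 48 h, which fell just short of 2-fold, and 1.74 or 3.33-fold at 96 h. Over the 4 arrays IL23A was higher by 1.37 (SE 0.23, 95% interval 0.77 to 1.96, limma adjusted p = 0.361), a 2.58-fold difference. The control arrays differed from each other by 0.17 in size, less than the ALKBH3 arrays, which differed by 0.57. The larger difference at 96 h could not be tested, with 1 array for each shRNA and time point.

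EBI3, the shared subunit of IL-27 and IL-35, was a dim probe printed as 10 spots (A_23_P119478). Its signals at 48 h and 96 h were -6.47 and -6.25 with control shRNA and -5.36 and -5.60 with ALKBH3 shRNA. The groups did not overlap, and the distance was larger at 48 h (1.11 or 2.16-fold) than at 96 h (0.65). The log2 fold change was 0.88 (SE 0.16, 95% interval 0.46 to 1.29, limma adjusted p = 0.384), short of the 2-fold cutoff. IL12A, the specific subunit of IL-12, was dim as well. The signals of its probe (A_23_P91943) were -6.46 and -6.10 with control and -5.78 and -5.44 with ALKBH3 shRNA, and the difference was nearly the same at 48 h (0.69) and 96 h (0.66). Its log2 fold change was 0.67 (SE 0.20, 95% interval 0.16 to 1.19, limma adjusted p = 0.544). Of the 15 probes, these 2 passed the filter only through the ALKBH3 arrays. Both were well above background on 3 arrays and not with control shRNA at 96 h, and only 0.6 of the EBI3 spots were so with control shRNA at 48 h. With another background correction (normexp) the differences were 0.25 for EBI3 and 0.07 for IL12A, and in the values that the authors had normalized they were 0.47 and 0.17.

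IL12B, which encodes the partner of both IL12A and IL23A, was not well above background on any array (0 of 4), with signals of -7.96 and -7.48 with control and -7.68 and -8.24 with ALKBH3 shRNA. IL27, which encodes the partner of EBI3, was well above background on 1 array, that of ALKBH3 shRNA at 96 h. Neither probe was tested, and no fold change is given for them.

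**Figure D3:**
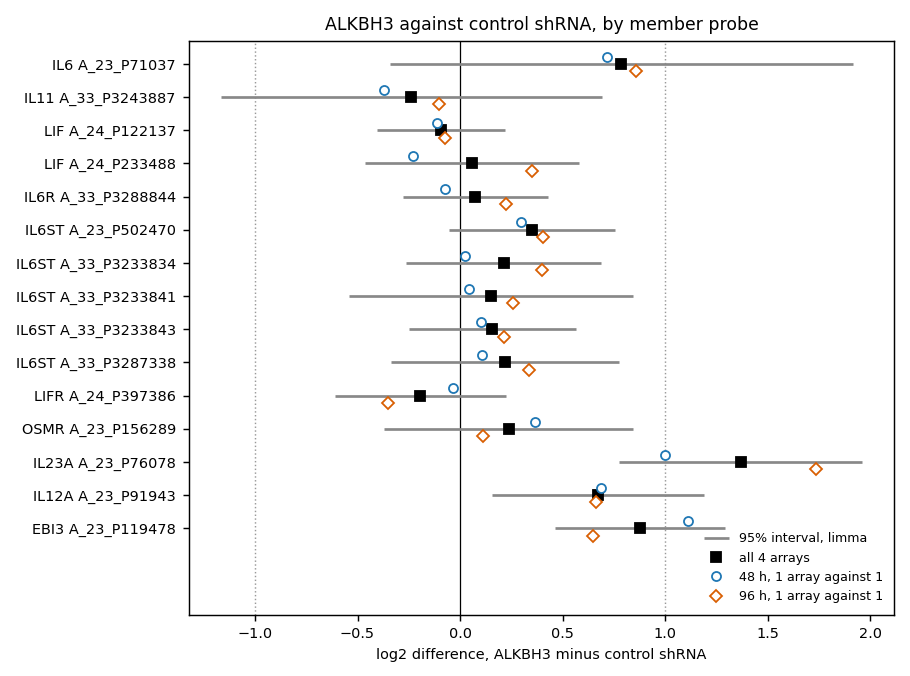
Difference between ALKBH3 and control shRNA for each member probe, on the log2 scale of the x axis. Squares are the difference over all 4 arrays with its 95% interval from limma, circles the difference at 48 h and diamonds that at 96 h (1 array against 1), and dotted lines mark 2-fold. The intervals of IL23A, IL12A and EBI3 do not reach 0, and those of the other 12 probes do. IL12A and EBI3 passed the filter only through the ALKBH3 arrays, on which they were the higher, so their intervals support nothing.

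IL6, the founding cytokine of the family, was measured by 10 spots of 1 probe (A_23_P71037), of which 8 were kept on the 48 h array of ALKBH3 shRNA. Its signal was -3.91 and -4.87 with control shRNA at 48 h and 96 h, and -3.19 and -4.01 with ALKBH3 shRNA. IL6 was thus higher with ALKBH3 shRNA within each time point, by 0.71 and 0.86, and lower at 96 h than at 48 h with both shRNAs, and the ALKBH3 array of 96 h lay just below the control array of 48 h. Without regard to time point its log2 fold change was 0.79 (SE 0.43, 95% interval -0.34 to 1.91, adjusted p = 0.772 in limma) and did not pass. With time point as a block the SE was 0.09 and IL6 passed (limma adjusted p = 0.0446). The only spread of a probe in this fit is how its difference changed between time points, without repeats within a time point. The SE is drawn by limma towards that of all probes, and it was 0.08 for the LIF probe A_24_P122137 too. The pass of IL6 is therefore not evidence from repeats. In that fit 2 of 15 member probes passed an adjusted p of 0.05 and were higher, IL6 and IL12A (0.0473), against 1.41% of all probes, and 0 were lower. IL12A is a probe that the filter admitted through the ALKBH3 arrays, with a difference of 0.07 after normexp. IL23A (0.0543) and EBI3 (0.0610) came just short of it. The value of IL6 depended on which arrays entered the fit. It was 1.27 when the 48 h control array was left out and 1.20 when the 96 h ALKBH3 array was, both past the cutoffs. It was 0.38 when the 48 h ALKBH3 array was left out and 0.31 when the 96 h control array was. In such a fit 1 shRNA is a single array that is assumed to vary like the other shRNA, and the time points are no longer balanced.

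The repeated spots show how well 1 array measured IL6 and EBI3, though spots of an array are not replicates of a condition. The spots of IL6 ranged from -4.10 to -3.74 with control and from -3.28 to -3.09 with ALKBH3 shRNA at 48 h. At 96 h they ranged from -5.22 to -4.58 and from -4.15 to -3.85, so the arrays of a time point did not overlap. For EBI3 the spots ran from -7.23 to -6.00 and from -5.66 to -5.23 at 48 h, again without overlap, but from -6.86 to -5.81 and from -6.03 to -5.29 at 96 h, where they did overlap. The SD between spots of EBI3 was 0.37 and 0.34 on the control arrays, and 0.13 and 0.26 on the ALKBH3 arrays.

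**Figure D4:**
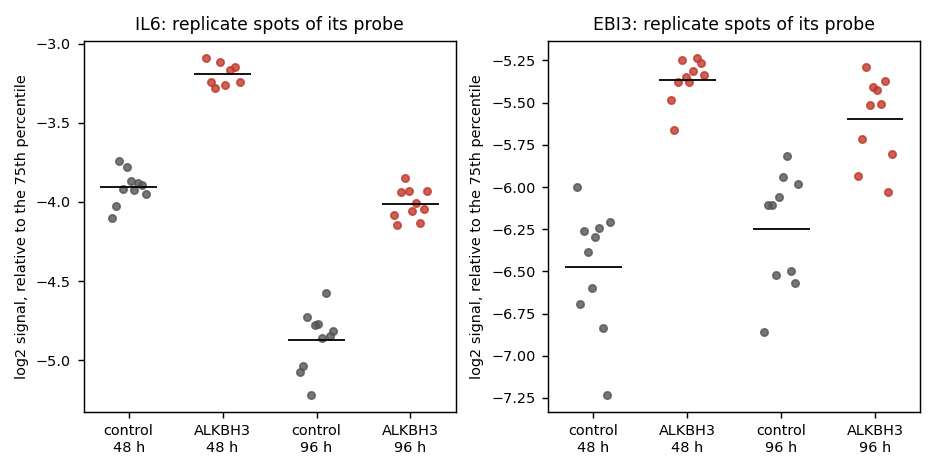
Log2 signals of the replicate spots of the IL6 probe (left) and the EBI3 probe (right), relative to the 75th percentile of each array. Each point is 1 spot, spread sideways only for legibility, and lines are the mean of an array. The spots of IL6 separate the shRNAs at both time points, and those of EBI3 at 48 h only.

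IL11, a gp130 cytokine with its own receptor chain, was lower at both time points, and its groups overlapped. Its signal (A_33_P3243887) was -2.75 and -3.59 with control and -3.12 and -3.70 with ALKBH3 shRNA. The differences of -0.37 at 48 h and -0.10 at 96 h were smaller than the step between time points, and the log2 fold change of -0.24 (SE 0.35, 95% interval -1.17 to 0.69, limma adjusted p = 0.959) did not pass. Its sign turned when the 48 h control array (0.19) or the 96 h ALKBH3 array (0.05) was left out. LIF, which acts through LIFR and gp130, had 2 probes. The brighter probe (A_24_P122137) read 1.84 and 1.77 with control and 1.73 and 1.70 with ALKBH3 shRNA, a log2 fold change of -0.09 whose 95% interval of -0.40 to 0.22 leaves out a 2-fold change either way (SE 0.12, limma adjusted p = 0.944). The dimmer probe (A_24_P233488) read -4.91 and -5.39 with control and -5.14 and -5.04 with ALKBH3 shRNA. It was lower at 48 h and higher at 96 h with ALKBH3 shRNA, and its log2 fold change was 0.06 (SE 0.20, 95% interval -0.46 to 0.58).

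The receptor genes differed little. IL6ST, the gp130 chain itself, was read by 2 probes of 1 RefSeq transcript and 3 of another, and all 5 were higher with ALKBH3 shRNA at both time points and lower at 96 h than at 48 h with both shRNAs. Their log2 fold changes lay between 0.15 (A_33_P3233841) and 0.35 (A_23_P502470). The probe with the largest difference read -2.42 and -2.68 with control and -2.12 and -2.28 with ALKBH3 shRNA, without overlap between the groups (SE 0.15, 95% interval -0.05 to 0.75, limma adjusted p = 0.706, and 0.121 with time point as a block). For the probe with the smallest, the control arrays read 0.05 and -0.56 and the ALKBH3 arrays 0.09 and -0.30, so the step between time points was larger than that between shRNAs. The other 3 probes differed by 0.21 (A_33_P3233834), 0.22 (A_33_P3287338) and 0.16 (A_33_P3233843). None of the 5 passed the cutoffs. At 48 h the differences were 0.02 (A_33_P3233834), 0.04 (A_33_P3233841), 0.10 (A_33_P3233843), 0.10 (A_33_P3287338) and 0.30 (A_23_P502470). In the same order they were 0.40, 0.26, 0.21, 0.33 and 0.40 at 96 h. The median size of the difference over all probes was 0.15 at each time point. The sign of A_33_P3233841 turned when the 48 h ALKBH3 array (-0.044) or the 96 h control array (-0.15) was left out, that of A_33_P3287338 when the latter was (-0.021), and that of A_33_P3233843 in the values that the authors had normalized.

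IL6R, the binding chain for IL-6 (A_33_P3288844), read -2.99 and -3.15 with control and -3.07 and -2.93 with ALKBH3 shRNA. Its log2 fold change was 0.07 (SE 0.13, 95% interval -0.28 to 0.43, limma adjusted p = 0.974), an interval that leaves out a 2-fold change. LIFR (A_24_P397386) read -2.10 and -2.11 with control and -2.13 and -2.46 with ALKBH3 shRNA. Both ALKBH3 arrays were below both control arrays, by 0.03 at 48 h and by 0.35 at 96 h in size, and the log2 fold change of -0.19 did not pass (SE 0.16, 95% interval -0.61 to 0.22, limma adjusted p = 0.886). OSMR, the oncostatin M receptor chain (A_23_P156289), read -3.20 and -3.49 with control and -2.84 and -3.38 with ALKBH3 shRNA. Its log2 fold change was 0.24 (SE 0.23, 95% interval -0.37 to 0.84, limma adjusted p = 0.913), and the sign turned (-0.033) when the 48 h ALKBH3 array was left out.

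Between the time points, which are also the slides, 13 of the 15 probes were lower at 96 h with control shRNA and 11 with ALKBH3 shRNA. The 5 probes of IL6ST, a single gene, are in both counts, and no share over all probes is given for these counts. The step was widest for IL6, at -0.96 with control and -0.82 with ALKBH3 shRNA, and IL11 followed with -0.85 and -0.57. The median step over all probes was -0.012 with control and 0.023 with ALKBH3 shRNA, and the median size of the step was 0.18 and 0.19. IL12A was the member that was higher at 96 h with both shRNAs, by 0.36 and 0.33. EBI3 was higher at 96 h with control shRNA (0.23) and lower with ALKBH3 shRNA (-0.23), whereas IL23A was lower with control (-0.17) and higher with ALKBH3 shRNA (0.57). Each of these steps rests on a single pair of arrays and was not tested.

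The other genes of the pathway gave 0 calls in either direction, beside 0.895% of all probes called higher and 0.232% called lower. At such shares, lists of this size can give 0 calls without being unlike other genes. Of 15 other ligands and receptors of these families, 14 were named on the array (IL11RA was not) and 7 were tested, with 2 at an unadjusted p below 0.05 (7.64% of all probes) and a median log2 fold change of 0.09 beside 0.0033 over all probes. IL27RA, the receptor chain for IL-27, differed most, with signals of -0.26 and -0.59 with control and -1.14 and -1.13 with ALKBH3 shRNA and a log2 fold change of -0.71 (SE 0.16, limma adjusted p = 0.410). OSM, which encodes oncostatin M, differed by 0.58 (SE 0.14, limma adjusted p = 0.445). Values were -0.31 for CLCF1, another gp130 cytokine, and 0.25 for IL12RB1, the receptor chain that binds the IL12B product. IL31, CNTFR, IL31RA, IL12RB2 and IL23R, the specific chain of the IL-23 receptor, did not pass the filter.

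Of 19 genes of JAK-STAT signalling and receptor shedding, 16 were tested, with 0 past the cutoffs, 3 at an unadjusted p below 0.05 (7.64% of all probes) and a median of -0.016. The feedback inhibitors CISH and SOCS1 differed by 0.63 (SE 0.15, limma adjusted p = 0.449) and 0.53 (SE 0.30, limma adjusted p = 0.778). SOCS2, of the same family of inhibitors, read 1.65 and 1.71 with control and 2.01 and 2.29 with ALKBH3 shRNA, a log2 fold change of 0.46 (SE 0.15, limma adjusted p = 0.586). ADAM17, a protease that sheds the IL-6 receptor, differed by -0.48 (SE 0.15, limma adjusted p = 0.564). STAT3, STAT5A and STAT5B did not pass the filter by the probes that could be named, so that STAT3, the main transducer of gp130, has no value here.

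Of 24 known STAT3 target and acute phase genes, 18 were tested, and 0 were past the cutoffs or at an unadjusted p below 0.05 (7.64% of all probes). Their median was 0.06. The STAT3 probe used here was itself not well above background on any array, so these genes are not read as a measure of STAT3 activity. The widest differences were -0.62 for BCL6, a transcriptional repressor (SE 0.25, limma adjusted p = 0.672), 0.49 for LRG1, 0.41 for CRP and 0.35 for SOCS3, the feedback inhibitor of gp130. CRP passed the filter only through the ALKBH3 arrays, with 1 of 2 control arrays well above background. FOS, FGG, FGB, LBP, SAA1 and SAA2 did not pass the filter.

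**Figure D5:**
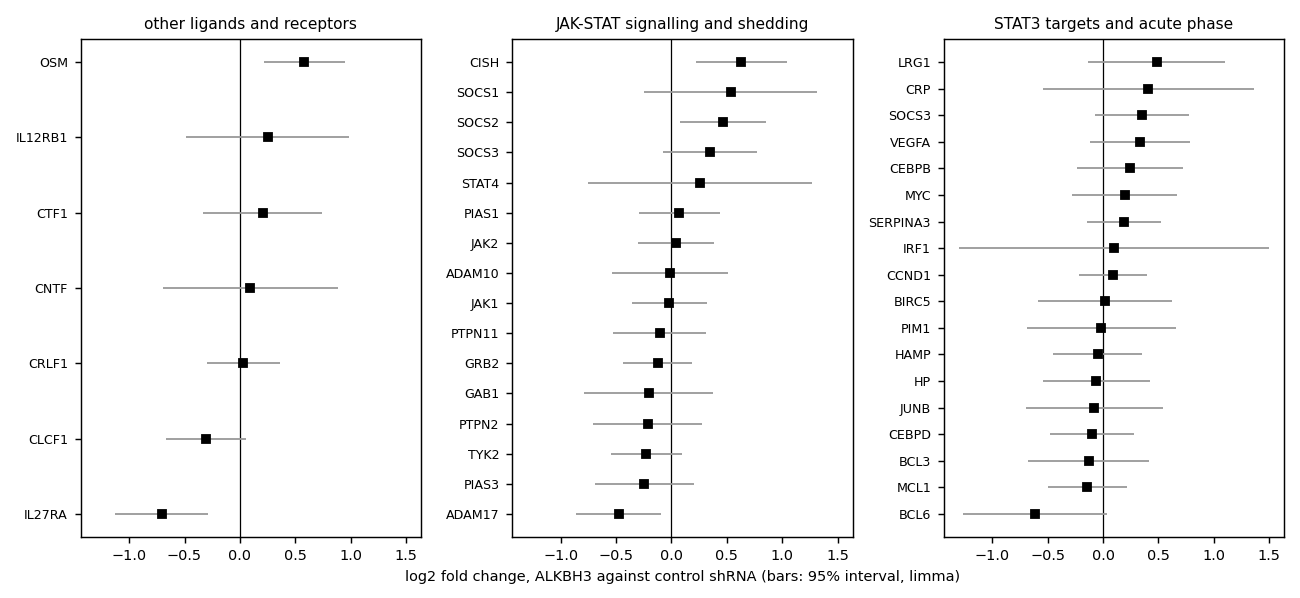
Log2 fold change of the tested genes of 3 lists, ALKBH3 against control shRNA, with the 95% interval from limma as bars (x axis in log2 units, 1 probe a gene). The panels hold 7, 16 and 18 genes, and none of them is past the cutoffs.

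The probes whose pattern over the 4 arrays was most like that of IL23A were found by the Euclidean distance between signals that were each centred on the own mean of the probe, over 17982 probes of other named genes that were well above background on all arrays. They were those of RFTN1 (distance 0.0646 log2 units), NRK (0.216), DYSF (0.254), FGF1 (0.278) and LY6K (0.282), beside a median distance of 1.45. That median mostly reflects probes that changed little. A probe near IL23A had to be higher with ALKBH3 shRNA as well, so the contrast shows no special likeness. RFTN1, which encodes a lipid raft protein, read -5.01 and -5.18 with control and -3.93 and -3.40 with ALKBH3 shRNA, a difference of 1.08 at 48 h and 1.78 at 96 h. With 4 arrays the likeness is a description, without a test.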

How the data were processed

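For each of the 4 arrays the authors deposited spot intensities from Agilent Feature Extraction (10.7.3.1 in the file headers), background-subtracted on that array alone. A second deposited table, of log2 values that the authors had normalized between arrays, served as an alternative. Of 43118 non-control spots, 180 to 379 per array were removed as not uniform or outlying. Log2 intensities were centred on the 75th percentile, with the mean taken over the spots of each probe. A probe was tested when at least 0.5 of its spots were well above background on both control or both ALKBH3 arrays. Symbols were assigned by RefSeq accessions (GRCh38.p14), which named 24910 of 34127 probes. ALKBH3 and control shRNA were compared by lmFit and eBayes of limma 3.58.1 (R 4.3.3, with data.table in version 1.17.8), with no covariate and Benjamini-Hochberg adjustment over all 23244 probes. The fit and the cutoffs were tested on simulated log2 values that held no shift between time points. The centring, the removal and averaging of spots and the filter were not part of that check.

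Arrays were paired by the time point in the labels, which is also the slide, and the deviations of the 48 h arrays from their group means correlated at 0.660. The time point served as a replicate block in an alternative, in which no repeat within a time point enters the SE. Other alternatives were normexp (offset 50), quantile normalization, other centring, the authors' values, other filters, 1 probe a gene, the methods' t-test, a 1.5-fold cutoff and leaving out each array. The number of arrays limits the precision. The members, the lists and the rule for named genes were chosen with earlier results of these data known. Every member probe, at most 4 genes of each list with the largest log2 fold change in size and the 5 probes nearest in pattern to the member with the largest difference were named, and lists use the probe with the highest mean signal. Fold changes at 1 time point carry no test. Some listed genes are not reported here.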

Additional observations from a re-analysis of the deposited data

Results flagged for a closer look

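The difference between ALKBH3 and control shRNA had opposite signs at the 2 time points for 2 member probes. The dimmer LIF probe (A_24_P233488) was at -0.23 at 48 h and 0.35 at 96 h, and IL6R (A_33_P3288844) at -0.075 at 48 h and 0.22 at 96 h, all in log2 units. Each value compares 1 array with 1 array, so the change of sign was not tested, and neither probe passed the cutoffs over the 4 arrays. Groups of 2 arrays are too small for a check of single outlying samples.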

How the results depend on the processing

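IL23A was past the cutoffs in all 15 alternatives, with a log2 fold change of 1.08 to 1.65 when an array was left out and 1.27 to 1.39 otherwise. With each array left out in turn, 1 to 2 member probes were called higher and 0 lower, and the second was IL6, with 0.31 to 1.27; these fits leave 1 shRNA with a single array and the time points unbalanced. A 1.5-fold cutoff called 3 higher (IL23A, and EBI3 and IL12A, which passed the filter only through the ALKBH3 arrays). With time point as a replicate block, 1 member probe was called higher and 0 lower, and 496 of all probes passed the adjusted p, as against 0 without the block. Among the members, IL6 and IL12A passed the adjusted p only with the block, where the SE is drawn largely from the spread of all probes. The block changed no member call at the cutoffs. Over all probes it gave 257 calls higher and 60 lower, against 208 and 54 without it. The sign turned for 1 LIF probe (A_24_P233488) with quantile normalization (-0.014) and for 1 IL6ST probe (A_33_P3233843) in the authors' values (-0.0056). With an array left out the range crossed 0 for IL11 (-0.66 to 0.19), OSMR (-0.033 to 0.51), IL6R (-0.0055 to 0.15), the same LIF probe (-0.18 to 0.30) and the IL6ST probes A_33_P3233841 (-0.15 to 0.45) and A_33_P3287338 (-0.021 to 0.46). The cause was not tested. Of the values of single members, 191 kept their side of the cutoffs and their sign. Over all probes, 208 were called higher and 54 lower, and these counts were 75 and 27 with normexp, 118 and 42 in the authors' values, 498 and 113 without a filter, 123 and 44 with a filter on all arrays, 60 and 24 with the methods' t-test (0 after Benjamini-Hochberg), 599 and 292 at 1.5-fold, and from 237 to 425 higher and 52 to 135 lower with an array left out. Both dim probes, EBI3 and IL12A, are limited by their signal over background.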
